A study of Mus musculus with 6 samples.

Results

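Chondroitin sulfate synthesis and sulfation was examined through 10 genes, which were chosen by name from the 46078 genes in the count tables of embryonic growth plate cartilage. They were Slc26a2, Papss1, Papss2, Ugdh, Xylt1, Csgalnact1, Chsy1, Chpf, Chst3 and Chst11, and each name matched 1 row of the tables. The study compared growth plates that express a mutant Idh1, the cytosolic isocitrate dehydrogenase, with control growth plates by bulk RNA sequencing. The 3 control libraries came from the genotype Idh1 LSL/+ and the 3 mutant libraries from Idh1 LSL/+ with Col2a1-Cre, all at E18.5. Every animal therefore carried 1 lox-stop-lox Idh1 allele. Cre itself also set the groups apart, beside the removal of the stop that it brings about, and the Col2a1 promoter directs Cre to cells that make or have made cartilage. Cartilage came from the distal femur and the proximal tibia, and polyadenylated RNA was read as single 50-base reads.

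Chondroitin sulfate is a long sugar chain carried by proteoglycans such as aggrecan, and its sulfate groups give cartilage the negative charge that holds water. Cells take up sulfate, activate it to the sulfate donor PAPS and build UDP-sugars, and enzymes of the Golgi then start a linker on the core protein, commit it to chondroitin, lengthen the chain and sulfate it. Inherited loss of several of these steps causes skeletal dysplasia, which is why the pathway is followed in growth plates.

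Several members have a close relative in the genome, so that reads from a stretch shared by both copies could not be assigned to 1 gene. The longest identical runs of coding bases are shown to make clear how short they are against a 50-base read. They are given in capitals with 15 bases on each side, 5′ to 3′ on the coding strand, from GENCODE transcripts of GRCm38, and positions count from the first base of the coding sequence. Papss1 (chromosome 3, bases 382 to 395) and Papss2 (chromosome 19, bases 355 to 368), the PAPS synthases, shared a run of 14 bases in coding exons.
Papss1: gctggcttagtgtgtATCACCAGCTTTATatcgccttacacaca
Papss2: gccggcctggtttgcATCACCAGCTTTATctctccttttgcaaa

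Csgalnact1 (chromosome 8, bases 1447 to 1464) shared 18 bases with Csgalnact2 (chromosome 6, bases 1480 to 1497), which catalyses the same step.
Csgalnact1: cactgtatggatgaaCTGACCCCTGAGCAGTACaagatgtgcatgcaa
Csgalnact2: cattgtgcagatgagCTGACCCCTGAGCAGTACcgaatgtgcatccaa

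Chst11 (chromosome 10, bases 541 to 557) shared 17 bases with Chst12 (chromosome 5, bases 733 to 749), another sulfotransferase for the fourth carbon of N-acetylgalactosamine.
Chst11: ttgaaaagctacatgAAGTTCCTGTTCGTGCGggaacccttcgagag
Chst12: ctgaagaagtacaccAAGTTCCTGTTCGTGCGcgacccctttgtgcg

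The run was longer, at 31 bases, between Xylt1 (chromosome 7, bases 1637 to 1667) and Xylt2 (chromosome 11, bases 1373 to 1403), the xylosyltransferases.
Xylt1: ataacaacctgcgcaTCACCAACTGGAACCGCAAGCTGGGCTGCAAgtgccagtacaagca
Xylt2: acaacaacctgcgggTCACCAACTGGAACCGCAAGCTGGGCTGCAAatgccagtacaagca

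The longest run shared with a relative was 33 bases, between Chsy1 and Chsy3, and none of the 8 pairs compared shared a run as long as a read. Over whole transcripts, 50-base stretches that also occur in transcripts of other genes made up at most 1.84% of the stretches of a member (Ugdh), and there were 0 such stretches in Papss2, Csgalnact1, Chpf and Chst11. Exon bases overlapped another gene in Ugdh (2.34%, with Gm43552 on the same strand) and in Chsy1 (3.54%, with Gm26827 on the opposite strand, and the counting ignored strand). The values of these 2 genes may hold some reads of the overlapping gene or lack reads from the shared bases, which was not checked.

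The libraries held between 23445687 and 30415773 counted reads, and 3 counts, the smallest level taken as measurable, were worth 0.0986 to 0.128 CPM (counts scaled to the depth of the library; the limit covers counting error only). Idh1 itself stood at 37.3, 39.2 and 65.4 CPM in controls 1 to 3 and at 47.6, 47.7 and 56.3 CPM in mutants 1 to 3, so that its total level did not separate the groups. Mutant 3 stood apart from the rest by Xist, with 26356 counts against 0 to 13, and by Y-linked genes, with 512 counts in all against 4193 to 5829. By these genes mutant 3 looked female and the other libraries male, so sex was not balanced between the genotypes. The part of sex in the differences below was not tested. The defining cartilage genes were present in every library, with Col2a1 at 1923 to 5245 CPM, Acan at 711 to 895 CPM and Sox9 at 75.1 to 121 CPM. The label of growth plate chondrocytes did not describe the whole sample, since 7 muscle markers together reached 13367 to 20406 CPM and the bone collagen Col1a1 alone reached 33199 to 47781 CPM.

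All 10 members passed the expression filter, and none was called different between mutants and controls at an adjusted p under 0.05 (quasi-likelihood test of edgeR, p-values adjusted by Benjamini-Hochberg over 16813 genes). Over all genes tested 32 were called, or 0.190%. At an unadjusted p under 0.05 there were 2 members, Csgalnact1 with the higher level in mutants and Chst3 with the lower, against 8.64% of all genes. The levels of the groups did not overlap for 2 members, Csgalnact1 and Chpf, and for 14.4% of all genes. The log2 fold change (mutant against control) was above 0 for 7 members and below 0 for 3, with a median of 0.08 beside a median of -0.0026 over all genes. The 95% intervals of the 10 log2 fold changes lay between -0.59 and 0.78, so that a change of 1 on the log2 scale was outside every one of them.

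**Figure D1:**
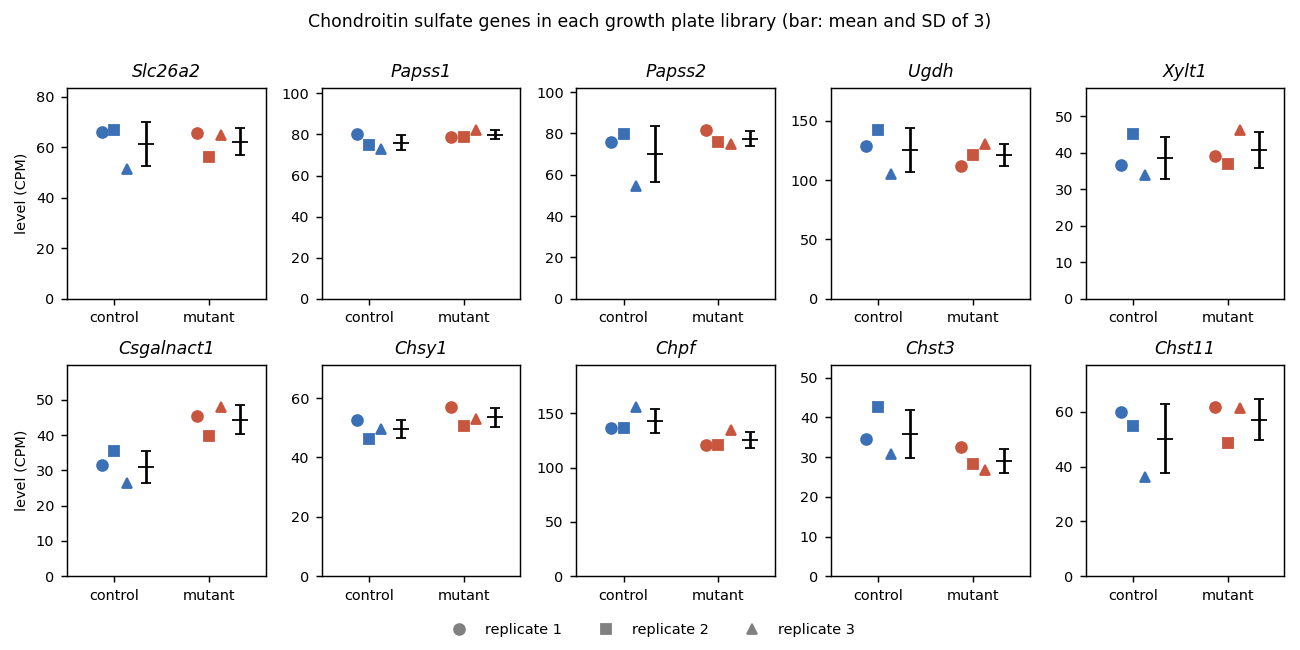
Level of each of the 10 chondroitin sulfate genes (vertical axis, TMM-scaled CPM, from 0) in the 3 control and 3 mutant libraries. Marker shapes give the replicate number, which the labels do not tie to litters, and the black bars give the mean and SD of 3. The mutant points of Csgalnact1 (39.9 to 47.9 CPM) lie above the control points (26.3 to 35.4 CPM), those of Chpf lie below, and the groups overlap in the other 8 genes.

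Csgalnact1 encodes the N-acetylgalactosaminyltransferase that adds the first chondroitin sugar to the linker. It lies on chromosome 8 (chr8:68356781-68735146 of GRCm38, reverse strand). Its level was 31.5, 35.4 and 26.3 CPM in controls 1, 2 and 3 and 45.4, 39.9 and 47.9 CPM in mutants 1, 2 and 3. Every mutant library lay above every control library. The means were 31.1 ± 4.54 CPM in controls and 44.4 ± 4.12 CPM in mutants (SD, n = 3 each), a fold of 1.43 with a 95% interval from 1.19 to 1.72. These levels rest on 729 to 1390 counts a library.

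The log2 fold change of Csgalnact1 was 0.51 with a standard error of 0.12, and its p was 0.00165 before and 0.182 after adjustment in edgeR. The call depended on the test: DESeq2 gave an adjusted p of 0.0181, where it called 1.17% of 16486 genes, and edgeR without the low-count filter gave 0.00636, where it called 0.903% of 28686 genes. Over 13 alternatives the adjusted p ran from 0.00636 to 0.482, and in 2 of them it was under 0.05. With each library left out in turn, the log2 fold change stayed between 0.41 (without control 3) and 0.62 (without control 2), and it was 0.45 without mutant 3. Csgalnact2, its relative, stood at 40.3 to 47.6 CPM in controls and at 42.8 to 49.8 CPM in mutants, with a log2 fold change of 0.06 (standard error 0.09).

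Chst3 encodes the sulfotransferase that acts on the sixth carbon of N-acetylgalactosamine, and its loss in people causes a skeletal dysplasia. It lies at chr10:60181532-60219260 of GRCm38. The levels were 34.5, 42.5 and 30.7 CPM in the controls against 32.5, 28.2 and 26.7 CPM in the mutants. Mutant 1 lay above control 3, so the groups overlapped, and control 2 was the highest library. This gave a log2 fold change of -0.30 with a 95% interval from -0.59 to -0.01 (unadjusted p = 0.0418, adjusted p = 0.555, edgeR). Without control 2 it was -0.16, and without mutant 3 it was -0.24.

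Chst11 encodes the main chondroitin sulfotransferase for the fourth carbon in cartilage, and it lies at chr10:82985498-83195900. It stood at 59.8, 54.8 and 36.1 CPM in the controls and at 61.6, 48.5 and 61.3 CPM in the mutants. Control 3 was the lowest library and the groups overlapped. Its log2 fold change, 0.19, had the widest 95% interval of the 10 members (from -0.20 to 0.57), and it was -0.0016 without control 3. Per kilobase of exon, the Chst11 to Chst3 ratio was 2.04, 1.51 and 1.38 in the controls, with 2.23, 2.02 and 2.70 in the mutants. On the log2 scale this ratio was 0.50 higher in the mutants, a difference that an exact permutation test did not separate from the spread (two-sided p = 0.2, adjusted over 3 ratios 0.6, where 0.1 is the smallest p that 3 against 3 can give).

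Chsy1 and Chpf encode the partners that polymerise the chain. Chpf, the polymerizing factor (chr1:75474569-75479307), stood at 136.4, 136.7 and 155.5 CPM in the controls and at 121.0, 120.9 and 134.4 CPM in the mutants. All mutant libraries were lower than all control libraries, though mutant 3 and control 1 lay close together. The log2 fold change was -0.19 (95% interval from -0.38 to 0.0067, unadjusted p = 0.0568, adjusted p = 0.604 in edgeR), and it was -0.12 without control 3 and -0.24 without mutant 3. Chsy1, the synthase (chr7:66109515-66173789), stood at 52.6, 46.4 and 49.6 CPM in the controls and at 56.9, 50.6 and 53.0 CPM in the mutants. The groups overlapped, and the log2 fold change was 0.11 (95% interval from -0.08 to 0.30). It was 0.065 without mutant 1 and 0.069 without control 2.

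Xylt1 encodes the xylosyltransferase that places the first sugar of the linker on the core protein, a step shared with heparan sulfate. It lies at chr7:117380979-117667751. Its levels were 36.7, 45.2 and 34.0 CPM in the controls against 39.2, 36.8 and 46.3 CPM in the mutants, which overlapped throughout, and the log2 fold change was 0.08 (95% interval from -0.20 to 0.36). Ugdh encodes UDP-glucose dehydrogenase, the source of UDP-glucuronic acid and, through it, of UDP-xylose, and lies at chr5:65413221-65435949. It stood at 128.8, 142.5 and 105.1 CPM in the controls and at 112.3, 121.1 and 130.6 CPM in the mutants. Here the controls spanned the mutants completely, and the log2 fold change was -0.05 (95% interval from -0.31 to 0.21).

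The supply of activated sulfate was covered by 3 members, and none of them separated the groups. Slc26a2, the sulfate transporter whose loss causes diastrophic dysplasia (chr18:61192919-61211612), stood at 66.0, 66.9 and 51.3 CPM in the controls and at 65.7, 56.2 and 64.7 CPM in the mutants. Its mean difference came to 0.02 on the log2 scale (95% interval from -0.24 to 0.27). Papss1 (chr3:131564768-131643671) stood at 80.2, 74.7 and 73.0 CPM in the controls and at 79.0, 78.7 and 82.3 CPM in the mutants, and its log2 fold change was 0.07 (95% interval from -0.09 to 0.24). Papss1 varied least of the 10 members over the 6 libraries, with a coefficient of variation of 4.47%, while Csgalnact1 varied most, at 21.9%. This coefficient takes both groups together, so that of Csgalnact1 includes the distance between its groups. The median over the members was 11.7%, close to the 12.0% of all genes.

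Papss2, the PAPS synthase whose loss in mice gives short limbs (chr19:32620005-32667187), stood at 76.0, 79.6 and 54.7 CPM in the controls and at 81.8, 75.7 and 74.9 CPM in the mutants. Only control 3 lay away from the other 5 libraries. Its log2 fold change was 0.14 (95% interval from -0.15 to 0.43), and it was -0.0032 without that library. Per kilobase of exon the Papss2 to Papss1 ratio was 0.795, 0.895 and 0.630 in the controls, with 0.870, 0.809 and 0.765 in the mutants (exact permutation test, two-sided p = 0.8, adjusted 0.8). The Slc26a2 to Acan ratio was 0.0536, 0.0512 and 0.0429 in the controls, with 0.0441, 0.0438 and 0.0430 in the mutants. The groups overlapped through control 3 alone, and the log2 ratio differed by -0.17 (exact permutation test, two-sided p = 0.4, adjusted 0.6). Without control 3 the difference was -0.26, and without control 1 it was -0.10.

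**Figure D2:**
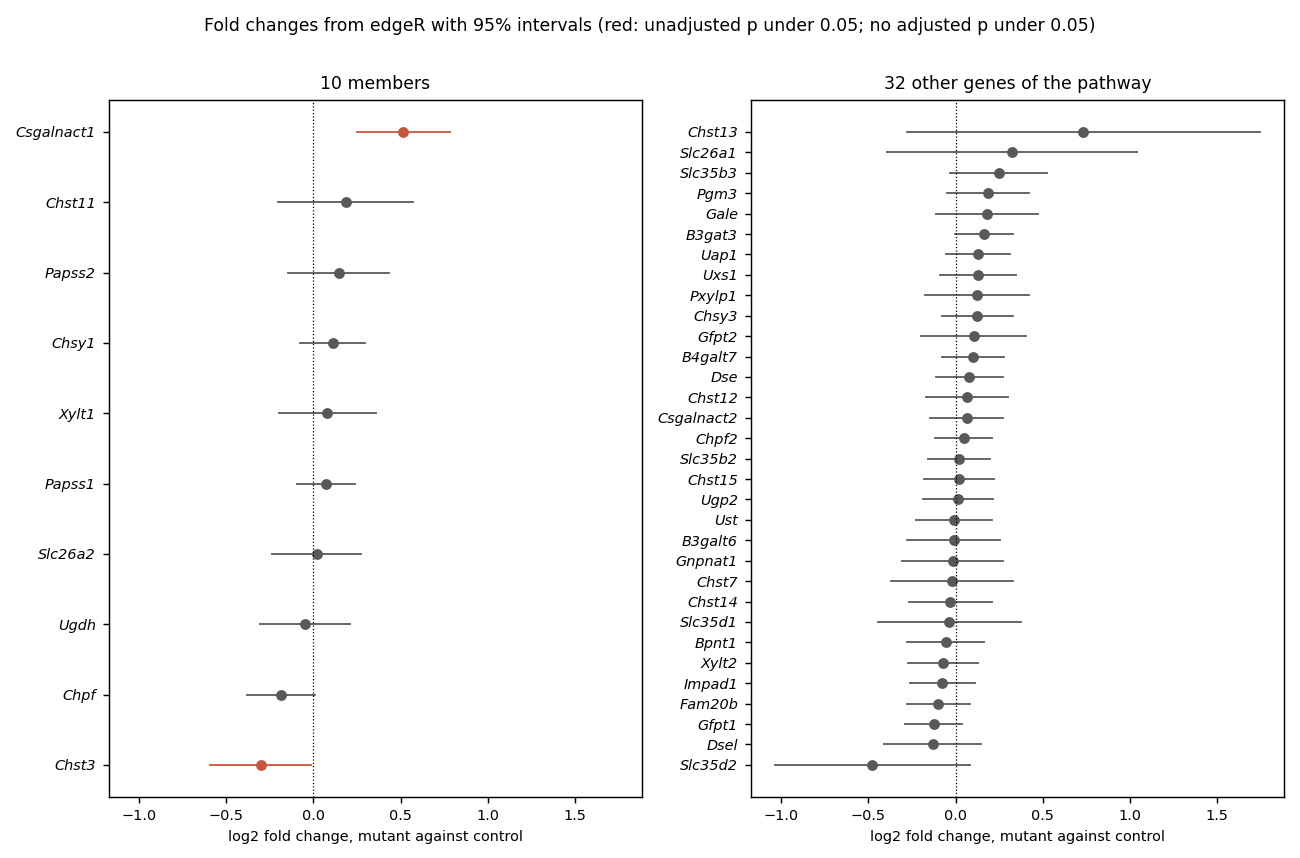
Log2 fold change of mutants against controls from edgeR (horizontal axis) with its 95% interval, for the 10 members at the left and 32 other genes of chondroitin and dermatan sulfate synthesis at the right; red marks an unadjusted p under 0.05. Csgalnact1 (0.51) and Chst3 (-0.30) are the red genes, and every interval in the right panel spans 0.

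Control 3 stood apart from the other libraries among the members. It was the lowest of the 6 libraries for 7 of the 10 members and below the mean of all libraries for 9, with a median deviation of -0.22 on the log2 scale. Chpf went the other way and was highest there. The cartilage markers showed the same library: control 3 was lowest for 9 of 11 of them and below the mean for 11, with a median deviation of -0.63, and Matn1, a cartilage matrix protein, deviated by -1.56 on the log2 scale. Control 2 was highest for 9 of 11 cartilage markers, with a median deviation of 0.67, but only 0.09 over the members. In bulk tissue, fewer cells of a type and less RNA per cell cannot be told apart. Without control 3 the log2 fold changes of Slc26a2 and Ugdh became -0.09 and -0.16, and that of Xylt1 became -0.0003.

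**Figure D3:**
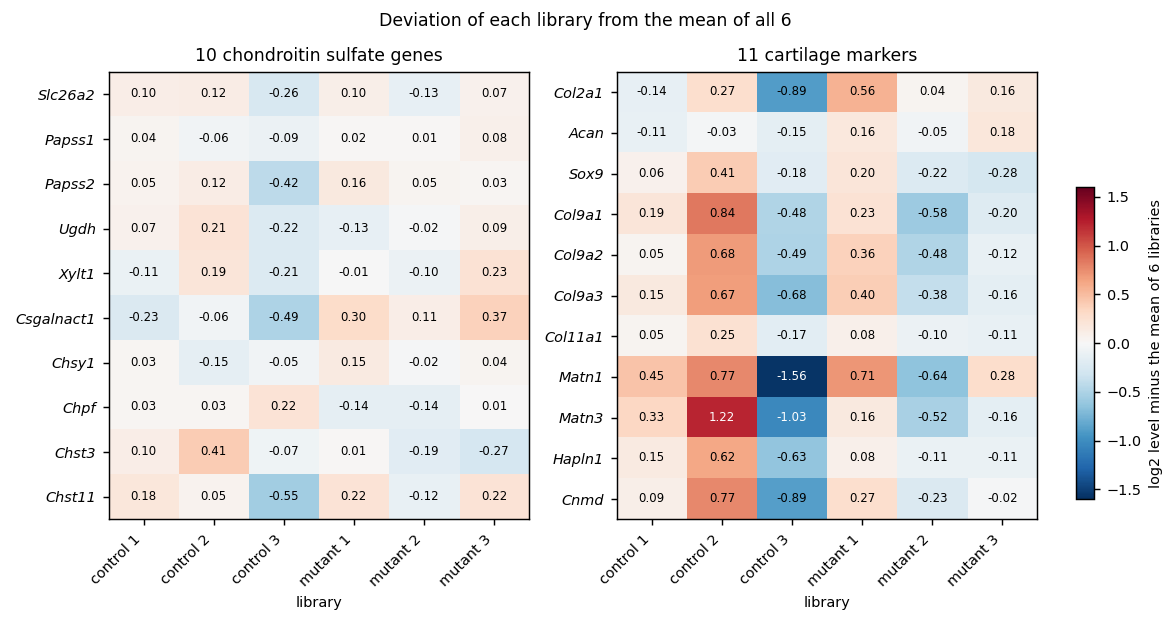
Log2 level minus the mean of the 6 libraries (colour and printed value) for the 10 members at the left and 11 cartilage markers at the right, with libraries as columns. The column of control 3 is below the mean for 9 members and 11 markers, and the members deviate less than the markers (median -0.22 against -0.63 in that library).

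Markers of other tissues were read in the same libraries. The 4 tendon markers together reached 1375 to 1494 CPM in controls and 1113 to 1343 CPM in mutants; 3 of the 4 were lower in mutants at an unadjusted p under 0.05, and Tnmd, a tendon membrane protein, was called (adjusted p = 0.0374, edgeR). The 5 red cell markers together reached 544 to 1582 CPM in controls and 288 to 426 CPM in mutants, and 5 of 5 were lower at an unadjusted p under 0.05. No tendon or red cell marker was at 0 in any library. Of the 4 skin markers, which reached 7.81 to 16.6 CPM in controls and 6.58 to 6.70 CPM in mutants, Krt5 was called lower (adjusted p = 0.0355, edgeR) and was at 0 in mutant 2, and Krt14 was at 0 in mutants 1 and 2. The sums of these 3 lists did not overlap between the genotypes, and their part in the differences of Csgalnact1, Chst3 and Chpf was not tested. The summed cartilage markers overlapped, at 5668 to 10534 CPM in controls and 7694 to 10582 CPM in mutants. So did the sums of the hypertrophic, bone, muscle, endothelial and macrophage lists. Col2a1 and Col11a1 made up most of the cartilage sum, and Col1a1 made up most of the bone sum. Of the 11 cartilage markers, 3 had a log2 fold change above 0 and 8 below 0, with a median of -0.16. All 7 bone markers were above 0, with a median of 0.49. Within the lists whose sums overlapped, 2 of 7 bone markers (Ibsp and Dmp1) were higher in mutants at an unadjusted p under 0.05. The same held for 1 of 4 endothelial markers (Kdr) and 1 of 4 macrophage and osteoclast markers (Csf1r). No marker of these lists was called. Over all genes tested, 8.64% had an unadjusted p under 0.05. Dmp1 stood at 6.76 to 82.9 CPM in controls and at 84.5 to 198 CPM in mutants, without overlap. The part of bone tissue in the differences of the members was not tested.

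Levels could be compared between genes only after division by exon length, as CPM per kilobase of the exons counted. Chpf stood highest of the members, at 34.8 ± 3.31 CPM per kilobase (SD, n = 6 libraries) and rank 1296 of 16813 genes. Papss1 followed at 25.5 ± 1.14 and rank 1870, and both lay clear of their neighbours in all 6 libraries. Papss2 at 20.3 ± 2.67 and Ugdh at 18.3 ± 2.00 overlapped each other, with Papss2 the higher in 5 of 6 libraries, and both lay above Chsy1 in every library. A middle group of overlapping neighbours held Chsy1 (12.4 ± 0.85), Xylt1 (10.4 ± 1.30), Chst11 (9.71 ± 1.81) and Csgalnact1 (7.90 ± 1.73), although Chst11 exceeded Csgalnact1 in each of the 6 libraries. The range of Csgalnact1 also overlapped that of Chst3, the next member down, although Csgalnact1 was the higher in each of the 6 libraries.

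The lowest members were Chst3 (5.004 ± 0.87, rank 7917) and Slc26a2 (4.997 ± 0.52, rank 7924), which could not be ordered over the 6 libraries. Chst3 was the higher in 2 of 3 controls and Slc26a2 in 3 of 3 mutants. The order rests on the exon lengths in the count tables, where Slc26a2 has 12370 bases and Papss1 has 3053. The counted exons of Xylt1 came to 3822 bases, while the GENCODE annotation of the same build gives 9651, so its place is less sure than the others.

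**Figure D4:**
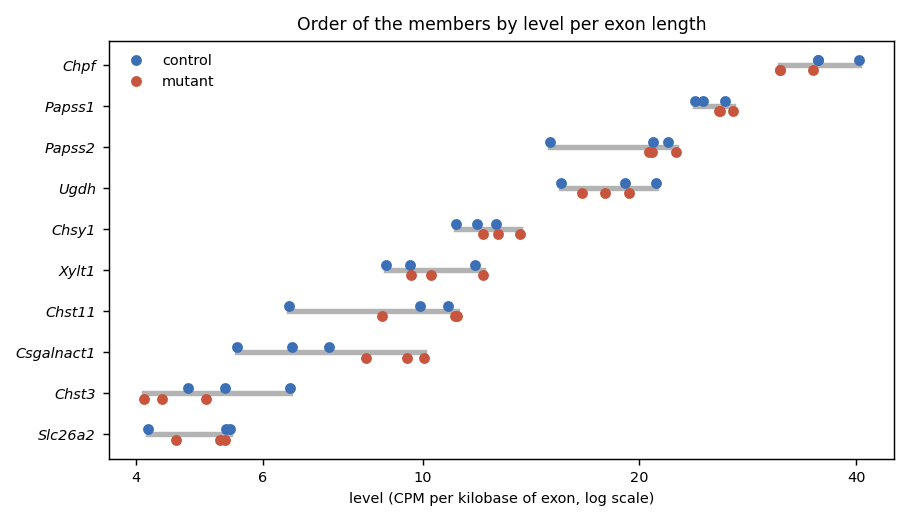
Level of each member per kilobase of exon (horizontal axis, CPM per kilobase, log scale) in the 3 control (blue) and 3 mutant (red) libraries, ordered by the mean; grey bars span the 6 libraries. Chpf and Papss1 stand clear at the top, and Chst3 and Slc26a2 share the lowest place at means of 5.004 and 4.997.

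The rest of the pathway was read from a list of 32 further genes, which all passed the filter. None was called, and none had an unadjusted p under 0.05, against 8.64% of all genes. The log2 fold change was above 0 for 19 and below 0 for 13, with a median of 0.03, and the groups did not overlap for 4 genes, 3 with higher and 1 with lower levels in mutants, beside 14.4% of all genes. The gene with the lowest p was B3gat3, the glucuronosyltransferase that completes the linker. It stood at 43.9, 45.5 and 45.3 CPM in the controls and at 48.8, 52.3 and 49.4 CPM in the mutants, higher in 3 of 3, with a log2 fold change of 0.16 ± 0.07 (standard error) and an adjusted p of 0.5999 in edgeR.

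Further genes stood out in each step only as the lowest p in a direction, and none passed the test. In the supply of sulfate and PAPS, Slc35b3, a Golgi PAPS transporter, had a log2 fold change of 0.25 (standard error 0.12) and Impad1, a Golgi phosphatase that clears the product of sulfation, had -0.08 (standard error 0.08). In UDP-sugar supply, Pgm3, an enzyme of UDP-N-acetylglucosamine synthesis, had 0.18 (standard error 0.11), and Slc35d2, a nucleotide sugar transporter, had -0.48 (standard error 0.25) at 1.99 to 4.40 CPM. In the linker, Fam20b, the xylose kinase, had -0.10 (standard error 0.08).

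Among the chain enzymes, log2 fold changes of Csgalnact2, Chsy3 and Chpf2 ran from 0.05 to 0.12, with each interval spanning 0. Among 8 genes of sulfation and epimerisation, Chst13, a sulfotransferase for the fourth carbon, had a log2 fold change of 0.73 with an interval from -0.28 to 1.75 at only 0.614 to 2.56 CPM. Dsel, an epimerase that turns chondroitin into dermatan sulfate, had -0.13 (standard error 0.12). Chst13, Slc26a1 and Slc35d2, the scarcest genes of the list by CPM, had its widest intervals, and a change inside those intervals could not be told from 0.

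Lists of neighbouring functions gave 0 calls each in edgeR, and each is set here only by its counts. Of 23 heparan sulfate genes 19 were tested. Among them 4 had an unadjusted p under 0.05 (8.64% of all genes did), all with lower levels in mutants, and the median log2 fold change was 0.0092. They were Hs3st6, Hs3st3b1, Hs3st3a1 and Ndst4, which were named after their values were seen. Of these, 3 encode sulfotransferases that add a rare modification late in heparan sulfate synthesis. Levels were low, at 9.83 to 15.7 CPM for Hs3st3b1, 2.97 to 5.96 CPM for Hs3st3a1 and 0.414 to 1.34 CPM for Ndst4. Their adjusted p in edgeR was 0.471, 0.536 and 0.502 in that order. Hs3st6 stood at 3.69, 4.37 and 1.70 CPM in the controls and at 1.95, 0.853 and 0.655 CPM in the mutants, an overlap through control 3 and mutant 1. On the log2 scale the difference was -1.52 ± 0.45 (standard error; adjusted p = 0.360 in edgeR), while that of Hs3st1 was 0.43 (standard error 0.21).

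Of 10 genes of lysosomal breakdown, 2 had an unadjusted p under 0.05, both higher in mutants, beside 8.64% of all genes, and the median log2 fold change was -0.04. Sumf1, which activates the sulfatases, had 0.22 (standard error 0.09) and Idua, the iduronidase, had 0.30 (standard error 0.13). Arsb, the sulfatase for the fourth carbon, had -0.21 (standard error 0.12). Of 9 core protein genes 8 were tested, 2 had an unadjusted p under 0.05, both higher in mutants, beside 8.64% of all genes, and the median was 0.26.

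The main core protein of cartilage, Acan, stood at 731, 777 and 711 CPM in the controls and at 886, 763 and 895 CPM in the mutants, an overlap through mutant 2 and control 2, with a log2 fold change of 0.20 (standard error 0.10). Vcan, the versican core protein of looser matrix, had 0.42 (standard error 0.17, adjusted p = 0.523 in edgeR). Bcan, the brevican core protein, had 1.37 (standard error 0.48, adjusted p = 0.455 in edgeR) at 0.614 to 4.24 CPM. Control 1, at 2.95 CPM, lay above the other controls at 0.848 and 0.614 CPM, and without it the log2 fold change of Bcan was 2.36 (adjusted p = 0.0408 in edgeR). Bgn, the biglycan core protein, had -0.14 (standard error 0.11).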

How the data were processed

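The 6 libraries were polyadenylated RNA, and each was taken as 1 animal, which the sample titles do not state. Per the labels and the file headers, the authors trimmed reads with Trim Galore 0.6.4, aligned them to GRCm38 with STAR 2.6.1d and counted them on exons of each gene with featureCounts 1.6.4, ignoring strand. The authors deposited these raw counts, without normalization, and every column of counts was used (0 left out). Counts were analysed with edgeR 4.0.16 in R 4.3.3 (filterByExpr with minimum count 10 and minimum total 15, TMM factors from 0.964 to 1.02, glmQLFit and glmQLFTest with genotype alone, Benjamini-Hochberg adjustment over 16813 genes, threshold 0.05). The authors' own test used DESeq2 1.28.1 with litter, which the labels do not give. Levels are CPM with TMM factors, and CPM per kilobase divides them by the exon length in the tables. Intervals of 95% come from the standard error and the moderated degrees of freedom. Ratios of 2 genes were tested by exact two-sided permutation.

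The members, the lists and the markers were chosen with earlier results of these data known. Genes were named by rule: every member, every called gene of the other lists, and the lowest p in each direction in each step. Csgalnact2, Chpf2, Slc26a1, Acan, Vcan, Idua, 3 of the heparan sulfate genes and single markers were named beside that rule after their values were seen. Replicate libraries of a group differed beyond sampling noise (chi-square from 11.6 to 45.1 per degree of freedom). The p-values set the difference between the groups against the spread between these libraries. The fits were tested on simulated counts and the permutation test on a small made-up example. The alternatives were DESeq2 1.42.0, limma-voom (limma 3.58.1), a replicate block, upper-quartile factors, other low-count filters and each library left out. Single-cell data were not used here.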

Additional observations from a re-analysis of the deposited data

How the results depend on the processing

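Of the 10 members, 1 (Csgalnact1) was called with DESeq2 and 1 (the same gene) without the low-count filter; no other setting and no left-out library gave a call, and the cause was not tested. In the 70 values of members under other settings, 68 kept their direction and their side of the threshold. With 1 library left out this held for 51 of 60 values and the other 9 changed sign. The log2 fold changes then ran from -0.091 to 0.092 for Slc26a2, from 0.049 to 0.113 for Papss1, from 0.065 to 0.155 for Chsy1 (lowest without mutant 1), from -0.0032 to 0.249 for Papss2, from -0.158 to 0.057 for Ugdh, from -0.022 to 0.212 for Xylt1 and from -0.0016 to 0.330 for Chst11. The difference in log2 ratio ran from -0.053 to 0.201 for Papss2 to Papss1 and from -0.264 (without control 3) to -0.104 (without control 1) for Slc26a2 to Acan. For Chst11 to Chst3 it ran from 0.388 (without mutant 3) to 0.669 (without control 1). The other genes of the pathway had 0 calls under every setting run. The comparison lists had 1 call with DESeq2 (Hs3st6), 1 with DESeq2 and the replicate block (Bcan), 2 without the filter (both) and 0 to 1 with a library left out (Bcan, without control 1).

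Over all genes, 193 were called with DESeq2, 96 with DESeq2 and the replicate block, 3 with edgeR and the replicate block, 19 with limma-voom, 259 without the filter and 3 to 17 with a library left out, against 32. Same-numbered control and mutant libraries did not deviate together (r = -0.13, 0.0070 and -0.095). With 3 libraries a group, this check cannot tell whether the numbers mark litters, which the labels do not give. With the replicate block in edgeR, Csgalnact1 had a log2 fold change of 0.52 and an adjusted p of 0.482. With 3 libraries a group, the precision of each change is that of its 95% interval.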
